A study of Homo sapiens with 12 samples.

Results

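The protocadherins are the largest group of cadherin-related adhesion molecules. Most human protocadherin genes lie side by side in 3 clusters on chromosome 5, named alpha, beta and gamma, in which each gene has its own promoter and its own large first exon. In the alpha and gamma clusters that exon is spliced to constant exons shared by the whole cluster, while beta genes stand alone. In neurons each cell uses a few of these promoters, with CTCF and cohesin bridging them to distant enhancers, and the proteins on 2 cells bind like to like. The solitary protocadherins lie outside these clusters and are regulated gene by gene. Several are known as targets of DNA methylation or Polycomb silencing in carcinomas. PCDH1 and PCDH12 of them lie on chromosome 5 after the gamma cluster.

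The members are the genes of the count tables whose symbol begins with PCDHA, PCDHB or PCDHG (clustered), or is PCDH followed by a number alone (solitary). This gave 68 of 23228 genes, of which 15 belong to the alpha cluster, 19 to the beta cluster and 23 to the gamma cluster, and 11 are solitary. MDA-MB-468 is an established line of triple-negative, basal-type breast carcinoma and is the only line used here. Cells were kept with DMSO alone, with the EZH2 inhibitor tazemetostat at 5 µM from day -5, with the AKT inhibitor ipatasertib at 5 µM for the last 24 h, or with both drugs on the same schedule. EZH2 is the catalytic subunit of the Polycomb complex PRC2, which marks silent genes with histone H3 lysine methylation, and AKT is a kinase of growth factor signalling. On day 0 the medium of all 4 groups was set to 2% serum. Poly(A) RNA was sequenced from 3 libraries per group, named A, B and C. Since the labels do not call them separate cultures, p-values here reflect library-to-library spread, and that spread may be technical.

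Reads in genes came to 12981622 to 17948209 per library in the combination group and 18926477 to 28746965 in the other 9 libraries, so 3 counts correspond to 0.106 to 0.228 CPM (counts scaled to library size). Libraries B and C resembled each other more than either resembled A: a chi-square over genes per degree of freedom within a group was 2.35 to 3.57 for B against C and 4.19 to 15.1 for A against either. The epithelial markers EGFR (1065 CPM with DMSO) and EPCAM (541) were abundant, while the hormone receptor genes ESR1 and PGR were at 1.71 CPM and without a read. EZH2 transcript was at 118, 84.4, 113 and 75.2 CPM with DMSO, ipatasertib, tazemetostat and the combination, but tazemetostat blocks the enzyme, so its transcript does not check the treatment. In bulk RNA, more cells with a transcript and more transcript per cell cannot be told apart.

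The promoters of the clustered genes share short sequence words, each most frequent in a different cluster. RefSeq promoters (GRCh38.p14) were at hand for 56 of the 68 members, and the 250 bases before each start were searched on both strands. The words were chosen after viewing these promoters. TGTCGCT was found in 10 of 13 alpha promoters, against 1.32% of 35116 promoters of all genes. TGGCGCT was found in 12 of 14 beta promoters, against 3.13% of all. CGCTGT, which can overlap the end of the other words through CGCT, was found in 21 of 25 gamma promoters, against 8.83% of all. These 25 promoters belong to 20 genes, some with overlapping windows, and by gene the count was 17 of 20. CGCTGT was also in 7 of 13 alpha promoters, so it does not separate gamma from alpha. TGTCGCT and TGGCGCT were in 3 and 5 of the 25 gamma promoters. TGTCGCT and CGCTGT were each in 1 of 14 beta promoters. CGCT itself is common: it was in 64.8% of all promoters and in 12 of 13 alpha, 13 of 14 beta and 25 of 25 gamma promoters. In the windows below, all on the plus strand, capitals mark the word of each cluster and the rest is in lower case.
PCDHA1, chr5:140786084-140786123: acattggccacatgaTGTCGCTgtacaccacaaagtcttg
PCDHA11, chr5:140868881-140868920: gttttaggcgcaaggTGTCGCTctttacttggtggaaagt
PCDHA12, chr5:140875242-140875281: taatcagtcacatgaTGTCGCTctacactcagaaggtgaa
PCDHB2, chr5:141094542-141094581: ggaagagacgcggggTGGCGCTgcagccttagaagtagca
PCDHB7, chr5:141172564-141172603: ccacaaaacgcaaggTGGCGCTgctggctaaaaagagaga
PCDHB10, chr5:141192297-141192336: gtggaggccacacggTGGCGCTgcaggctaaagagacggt
PCDHGB1, chr5:141350023-141350062: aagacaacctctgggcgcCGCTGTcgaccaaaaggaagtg
PCDHGB5, chr5:141397861-141397900: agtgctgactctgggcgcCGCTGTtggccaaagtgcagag
PCDHGC3, chr5:141475878-141475917: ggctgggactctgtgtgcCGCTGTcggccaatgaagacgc

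PCDHAC1 and PCDHAC2, the C-type genes at the end of the alpha cluster, had no TGTCGCT in this window, and both rose in the results that follow. The clustered promoters were mostly poor in G and C: the median was 34.8% for alpha, 39.6% for beta and 44.4% for gamma. It was 58% over all promoters and 57.4% for the solitary genes. PCDHAC1 (63.2%), PCDHAC2 (62.4%) and PCDHGC3 (60%) were among the exceptions. A match is a description of these letters and not evidence of a bound factor.

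All 68 members had at least 1 read, but many had very few. A filter on low counts (edgeR filterByExpr, near 0.441 CPM in at least 3 libraries) left 44 members for testing: 6 alpha, 14 beta, 16 gamma and 8 solitary. The 24 removed members never exceeded 14 counts in a library, and 9 of them are alpha genes. A member can pass this filter through 1 group alone, in which case it had to differ from the others. PCDHA1, PCDHA12, PCDHAC1, PCDHAC2, PCDHB7, PCDHB8, PCDHB12, PCDHGA1, PCDHGA10, PCDHGB3, PCDH10, PCDH18 and PCDH20 were below the cutoff in every DMSO library, so a difference of theirs from DMSO is partly fixed by the filter. Counts over the members are therefore also given for the 24 that were above the cutoff in every DMSO library (2 alpha, 6 beta, 11 gamma and 5 solitary), a view added after the data were seen.

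Changes below are log2 fold changes ± SE, with adjusted p from edgeR's quasi-likelihood test (Benjamini-Hochberg over all tested genes, threshold 0.05). With tazemetostat alone, 30 of the 44 tested members rose against DMSO and 1 fell in this test, while 25.9% of all 14571 tested genes rose and 21.3% fell (47.2% called). The rise covered 6 of 6 tested alpha genes, 10 of 14 beta genes, 9 of 16 gamma genes and 5 of 8 solitary genes. Of the 24 members above the cutoff in every DMSO library, 17 (70.8%) rose and 1 fell, while 22.9% of the 13221 genes that met the same cutoff rose. Among these 24, both alpha genes, 5 of 6 beta genes, 8 of 11 gamma genes and 2 of 5 solitary genes rose. Their median log2 fold change was 2.10 for alpha, 0.91 for beta, 0.63 for gamma and 0.15 for the solitary genes, against -0.018 over the 13221 genes. The medians over the tested members, which include those tested only through a treated group, were 2.32 for alpha, 0.99 for beta, 0.64 for gamma and 1.24 for the solitary genes. With the combination, 31 of 44 rose and 1 fell against DMSO, where 34.4% of all genes rose and 30% fell (64.4% called). Of the 24, 17 rose and 1 fell with the combination, against 31.4% and 32.9% of the 13221 genes. Ipatasertib alone raised 7 and lowered 3 of 44, where 24% of all genes rose and 23.1% fell (47.1% called), so its share of members raised was not above the background. Of the 24, it raised 6 (25%) and lowered 2, against 24.8% and 25.2% of the 13221 genes. Rises of at least 1 on the log2 scale were called for 2, 19 and 21 members with ipatasertib, tazemetostat and both, against 3.29%, 8.54% and 12.8% of all genes. These counts, too, include members tested only through a treated group. These 3 comparisons share the DMSO libraries. Against DMSO, 27 of the 44 tested members were called higher both with tazemetostat and with the combination, and 9 were called in neither. These joint counts include members tested only through a treated group. The matching shares of all genes were not computed, so they cannot be set against a background.

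**Figure D1:**
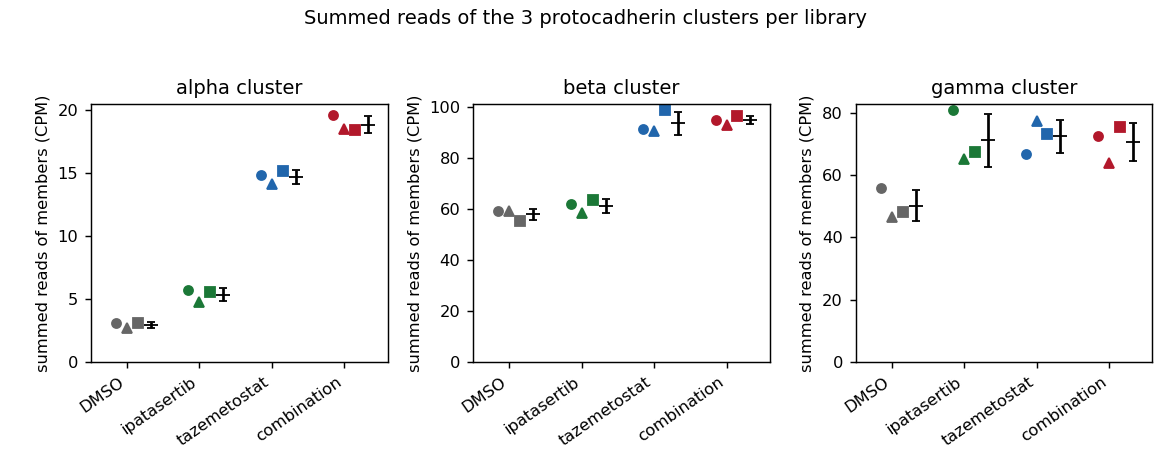
Summed reads of the alpha, beta and gamma cluster members in each library, in CPM on a linear axis from 0. Circles, triangles and squares are libraries A, B and C, and the black mark is the mean with its SD (n = 3). Alpha sums are 2.68 to 3.11 with DMSO and 18.4 to 19.6 with the combination, and the gamma sums of the 3 treated groups overlap each other.

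The summed reads of the alpha cluster were 3.05, 2.68 and 3.11 CPM with DMSO (libraries A, B and C), 5.71, 4.75 and 5.56 under ipatasertib, 14.8, 14.1 and 15.1 under tazemetostat, and 19.6, 18.4 and 18.4 with the combination. No 2 groups overlap, and the group means stand at 1.81, 4.98 and 6.38 times DMSO. These sums rest on 59 to 86 reads per DMSO library and on 243 to 377 per library with tazemetostat or both drugs. The beta cluster went from 57.8 ± 2.14 CPM with DMSO to 93.5 ± 4.515 with tazemetostat and 94.6 ± 1.585 with both drugs (SD, n = 3). With ipatasertib it was 61.9, 58.2 and 63.3 CPM (61.1 ± 2.62), against 58.9, 59.2 and 55.4 with DMSO, so libraries A and C with ipatasertib were above every DMSO library and B was not. The gamma cluster was at 50.2 ± 4.90 CPM with DMSO and at 71.2 ± 8.52, 72.5 ± 5.32 and 70.7 ± 6.10 with ipatasertib, tazemetostat and both. Every treated library was above every DMSO library, and the 3 treated groups overlap. Without PCDHGC3 and PCDHGB5, the gamma sum was 1.19, 1.53 and 1.42 times DMSO with ipatasertib, tazemetostat and both. That remaining sum was 21.25 to 26.35 CPM with ipatasertib, below the 29.29 to 31.3 CPM with tazemetostat. No p-value is given for these sums, since the members were chosen with results known.

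Read assignment limits the alpha and gamma values. In GENCODE 29, 19.2% to 56.6% of the exon bases of an alpha gene (median 46.7%) and up to 64.4% of those of a gamma gene (median 43.9%) also belong to another member, while beta and solitary genes share none. How the counting treated reads in shared exons is stated in no source used here. Reads set aside as ambiguous made up 1.57% to 1.80% of the total in the group means, over all genes. Beta genes share no exon but resemble each other: 45.8% of the 50-base windows of PCDHB8 and 35.4% of those of PCDHB10 occur in another member, so part of the value of such genes may be uncertain.

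Within the alpha cluster, PCDHA3 took the largest share of the reads with DMSO. The PCDHA3 level was 1.21, 1.05 and 1.30 CPM with DMSO, 2.66, 2.94 and 3.15 under ipatasertib, 4.40, 4.56 and 5.12 under tazemetostat, and 9.53, 8.87 and 7.87 under both. All 4 groups are separate, in the order DMSO, ipatasertib, tazemetostat, combination. PCDHA3 rose with each drug: log2 1.29 ± 0.18 (adjusted p = 3.61e-06) with ipatasertib, log2 1.98 ± 0.16 (adjusted p = 1.45e-09) with tazemetostat and log2 2.88 ± 0.16 (adjusted p = 4.4e-13) with both. It was also higher with both drugs than with tazemetostat, log2 0.90 ± 0.13 (adjusted p = 5.29e-06). The interaction, the departure of the pair from the sum of the 2 single changes on the log2 scale, did not pass the test for this gene (log2 -0.39 ± 0.22, adjusted p = 0.244). PCDHA3 was the only one of the 6 tested alpha genes called with ipatasertib, and its share of the cluster's reads was 40.1% ± 1.42 with DMSO, 55% ± 7.76 under ipatasertib, 32% ± 2.03 under tazemetostat and 46.6% ± 3.27 with both (SD, n = 3).

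PCDHA11 moved with tazemetostat and not with ipatasertib. The PCDHA11 level was 1.17, 0.591 and 1 CPM with DMSO, 1.53, 0.641 and 1.22 under ipatasertib, 5.03, 4.07 and 4.33 under tazemetostat, and 3.99, 3.57 and 3.97 under both. The libraries with tazemetostat, alone or combined, are all above the other 6, and the ipatasertib libraries overlap DMSO. It rose by log2 2.23 ± 0.22 (adjusted p = 3.07e-08) with tazemetostat and by log2 2.03 ± 0.24 (adjusted p = 1.75e-07) with both. PCDHA1 rose by log2 2.42 ± 0.48 and PCDHA12 by log2 1.72 ± 0.40 with tazemetostat. Their DMSO levels were at most 0.222 CPM, which is near the floor of 3 counts. Both were below the cutoff in every DMSO library, so no test against DMSO is given for them.

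The C-type genes at the 3′ end of the alpha cluster are, as a class, expressed more evenly across neurons than the other clustered genes. The PCDHAC1 level was 0.213, 0.273 and 0.370 CPM with DMSO, 0.392, 0.427 and 0.473 under ipatasertib, 2.62, 2.20 and 2.62 under tazemetostat, and 2.66, 2.96 and 2.86 under both. The 6 libraries with tazemetostat are at least 2.20 CPM and the other 6 at most 0.473 CPM. PCDHAC1 rose by log2 3.09 ± 0.25 with tazemetostat and log2 3.28 ± 0.26 with both. It was below the cutoff in every DMSO library, so no test against DMSO is given for it. PCDHAC2 had 1 read in the 3 DMSO libraries together, against 54 with tazemetostat and 28 with both, a ratio of 59.6 (95% counting interval 10.3 to 2400) and 47.4 (7.84 to 1940). Among the alpha genes too low to test, PCDHA2 went from 2 reads with DMSO to 15 with tazemetostat, a ratio of 8.28 (1.93 to 74.6). It had 19 reads with both (9, 1 and 9 in libraries A, B and C), a ratio of 16.1 (3.88 to 142). PCDHA4 had no read with DMSO and 8, 5 and 8 with ipatasertib, tazemetostat and both. From DMSO to tazemetostat, PCDHA5 went from 2 to 5 reads, PCDHA9 from 3 to 15, PCDHA10 from 0 to 6 and PCDHA13 from 4 to 11. The rest barely moved: PCDHA6 went from 0 to 1, PCDHA7 from 2 to 3 and PCDHA8 from 3 to 2.

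**Figure D2:**
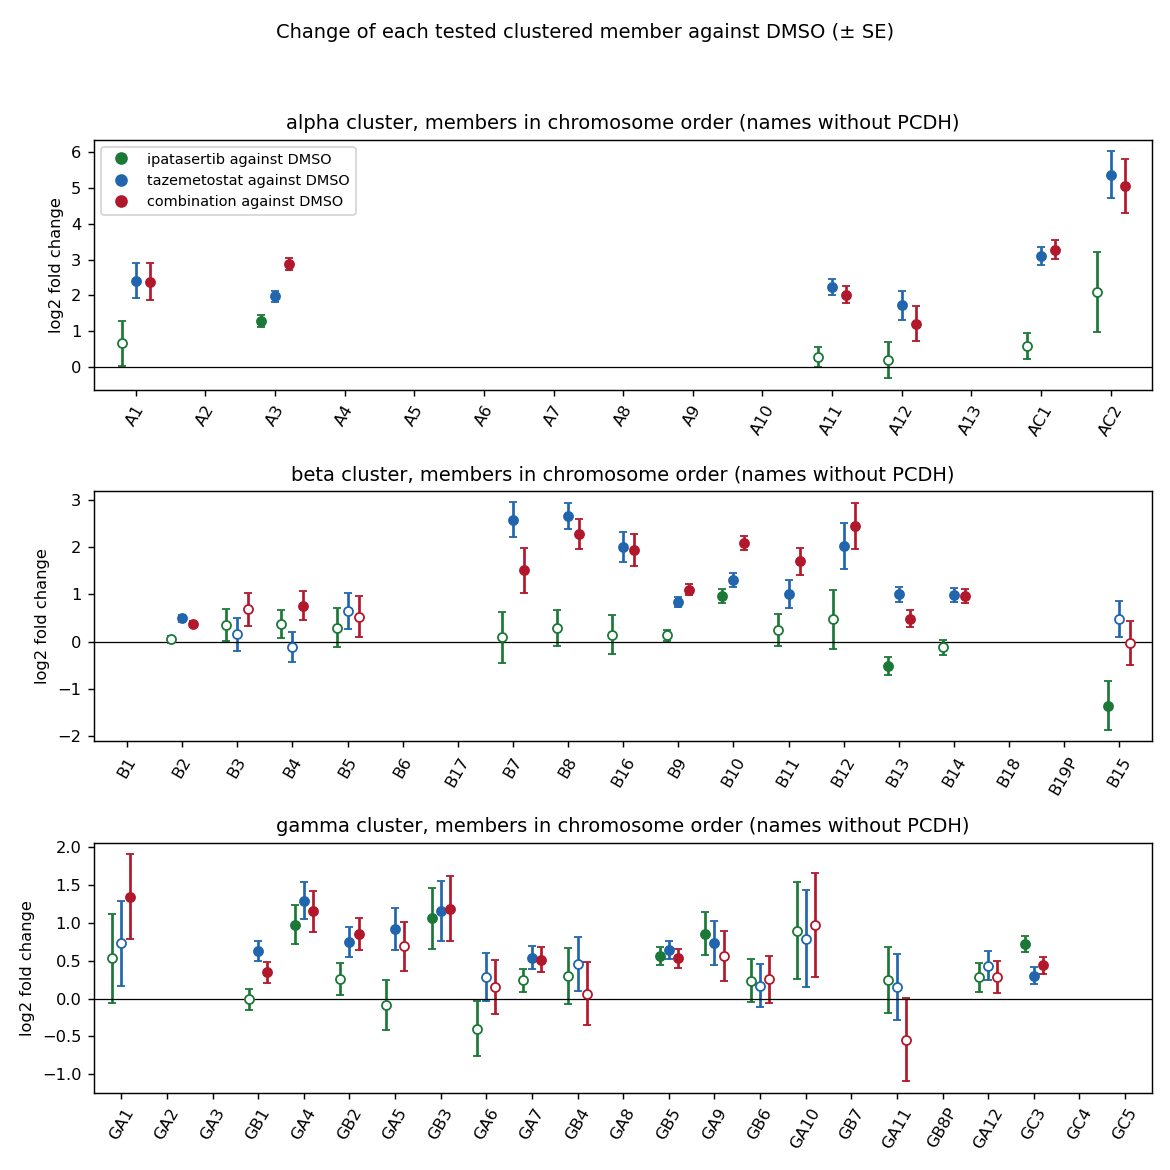
Log2 fold change against DMSO of each tested clustered member, with its SE, in chromosome order within the alpha, beta and gamma cluster. Filled points passed an adjusted p of 0.05 and open points did not, untested members have no point, and PCDHAC2 rests on 1 DMSO read. The blue (tazemetostat) and red (combination) points from PCDHB7 to PCDHB14 are all filled and above 0.

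In the beta cluster the rise covered a block of neighbours. From PCDHB7 to PCDHB14, 9 consecutive genes (PCDHB7, PCDHB8, PCDHB16, PCDHB9, PCDHB10, PCDHB11, PCDHB12, PCDHB13 and PCDHB14) rose both with tazemetostat and with the combination. The other tested beta genes did less: PCDHB2 rose slightly in both, PCDHB4 was called with the combination alone (a call lost without DMSO B or C or combination B or C, adjusted p = 0.0614 to 0.134), and PCDHB3, PCDHB5 and PCDHB15 were not called in either. The combination call of PCDHB13 was lost without DMSO library A or B or combination library B (adjusted p = 0.0599 to 0.127). Of the 9, PCDHB9, PCDHB10, PCDHB13 and PCDHB14 were above the cutoff in every DMSO library. The longest run of neighbours that rose was shorter in the other clusters. In the gamma cluster it had 5 of 23 genes with tazemetostat, from PCDHGB1 to PCDHGB3, and 3 with the combination. In the alpha cluster it had 2 of 15 genes with either treatment, PCDHA11 and PCDHA12. An untested gene ends a run in this count. All 6 tested alpha genes rose with either treatment, so the alpha run was broken only by the 9 untested genes. No test of position was run.

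PCDHB8 showed the largest fitted change of the block with tazemetostat. The PCDHB8 level was 0.319, 0.409 and 0.445 CPM with DMSO, 0.218, 0.480 and 0.710 under ipatasertib, 2.41, 2.28 and 2.75 under tazemetostat, and 2.00, 1.52 and 2.16 under both. No library with tazemetostat overlaps one without it. PCDHB8 rose by log2 2.65 ± 0.28 with tazemetostat and log2 2.28 ± 0.31 with both. PCDHB7 rose by log2 2.58 ± 0.37 with tazemetostat and by log2 1.51 ± 0.47 with both. It was lower with both than with tazemetostat alone (log2 -1.07 ± 0.34, adjusted p = 0.012). That call was lost without tazemetostat library C (adjusted p = 0.0661). PCDHB16 rose by log2 2.01 ± 0.32 (adjusted p = 2.23e-05) and PCDHB12 by log2 2.01 ± 0.49 with tazemetostat. PCDHB7, PCDHB8 and PCDHB12 were below the cutoff in every DMSO library, so no test of theirs against DMSO is given. PCDHB16 was above it in 1 DMSO library. The filter thus partly fixed these differences from DMSO.

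PCDHB10 was raised by either drug. The PCDHB10 level was 1.81, 2.27 and 2.07 CPM with DMSO, 3.49, 4.06 and 4.42 under ipatasertib, 5.50, 4.89 and 4.70 under tazemetostat, and 8.42, 9.40 and 8.36 under both. The 4 groups do not overlap, and they stand in the same order as for PCDHA3. It rose by log2 0.97 ± 0.15 (adjusted p = 2.33e-05) with ipatasertib, log2 1.30 ± 0.15 (adjusted p = 2.52e-07) with tazemetostat and log2 2.09 ± 0.15 (adjusted p = 2.99e-11) with both, and the interaction was not called (log2 -0.17 ± 0.20, adjusted p = 0.603). The combination exceeded tazemetostat alone by log2 0.80 ± 0.13 (adjusted p = 2.77e-05). PCDHB9, its neighbour, rose by log2 0.83 ± 0.11 (adjusted p = 2.18e-06) with tazemetostat and log2 1.10 ± 0.11 (adjusted p = 2.13e-08) with both, and PCDHB14 by log2 0.98 ± 0.14 (adjusted p = 8.05e-06) and log2 0.97 ± 0.15 (adjusted p = 9.58e-06).

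PCDHB2 supplied most of the beta reads in each group. The PCDHB2 level was 38.4, 39.7 and 35.9 CPM with DMSO, 40.7, 37.4 and 39.4 under ipatasertib, 52.6, 52.2 and 55.1 under tazemetostat, and 47.9, 48.7 and 50.5 under both. It rose by log2 0.49 ± 0.070 (adjusted p = 5.47e-06) with tazemetostat, less than the cluster median, and by log2 0.37 ± 0.071 (adjusted p = 0.000107) with both. Its share of the cluster's reads was 65.7% ± 1.23 with DMSO, 57% ± 1.08 with tazemetostat and 51.8% ± 1.06 with both (SD, n = 3). Without PCDHB2, the beta sum was 2.03 times DMSO with tazemetostat and 2.30 times with the combination.

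Of the beta genes, 2 fell with ipatasertib. The PCDHB13 level was 2.06, 2.45 and 3.04 CPM with DMSO, 1.66, 1.71 and 1.89 under ipatasertib, 5.24, 4.26 and 5.70 under tazemetostat, and 3.38, 3.87 and 3.34 under both. PCDHB13 fell with ipatasertib (log2 -0.51 ± 0.19, adjusted p = 0.0305) and rose with tazemetostat (log2 1.002 ± 0.16, adjusted p = 2.34e-05), and with both it was higher than DMSO (log2 0.48 ± 0.18, adjusted p = 0.0238) and lower than tazemetostat alone (log2 -0.52 ± 0.17, adjusted p = 0.0137). PCDHB15 also fell with ipatasertib, log2 -1.36 ± 0.52 (adjusted p = 0.0347), at levels of 0.107 to 0.197 CPM near the floor. The ipatasertib call of PCDHB13 was lost without DMSO B, DMSO C, ipatasertib A or ipatasertib B (adjusted p = 0.051 to 0.19), and its fall from tazemetostat to both without tazemetostat C (0.0715). That of PCDHB15 was lost without DMSO A or B or any ipatasertib library (0.0565 to 0.163). Without ipatasertib library A, 5 of the 10 members called with ipatasertib were left.

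**Figure D3:**
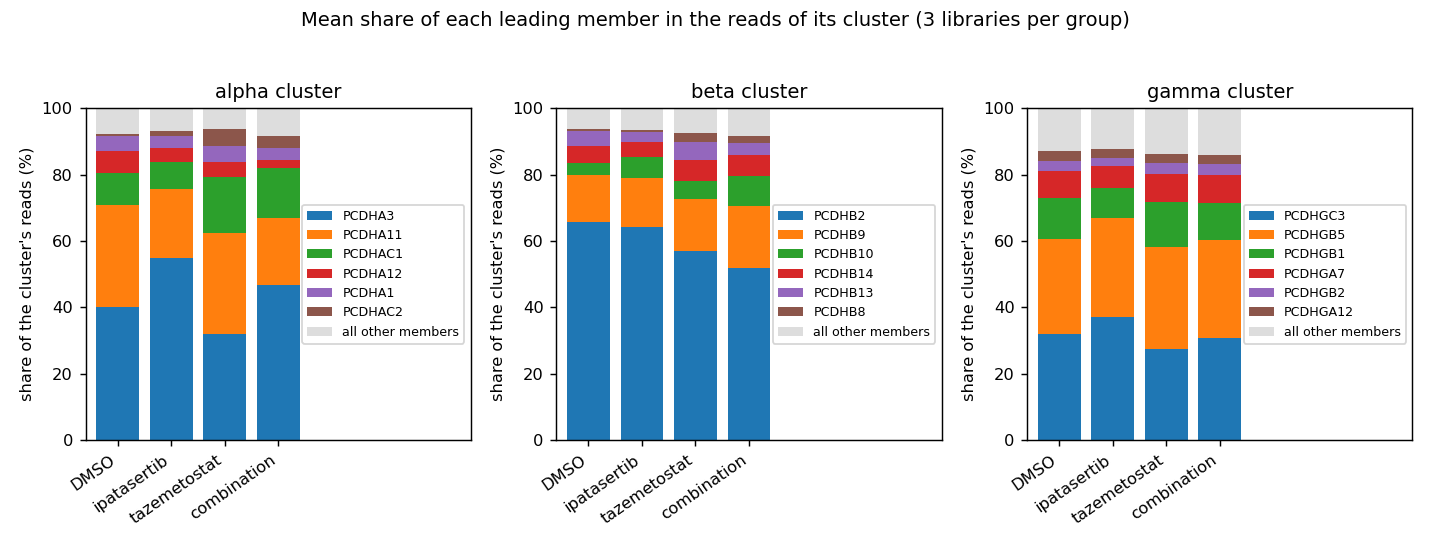
Mean share of the reads of each cluster taken by its 6 leading members and by all others, in percent, for the 4 groups of 3 libraries. PCDHB2 falls from 65.7% of the beta reads with DMSO to 51.8% with both drugs, and PCDHA3 ranges from 32% to 55% of the alpha reads.

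The tested gamma genes had the smallest median change of the 3 clusters with tazemetostat, and 5 of the 16 rose with ipatasertib, near the 24% of all genes that did. PCDHGC3 and PCDHGB5 held most of its reads, at 60.6% ± 1.99 of the cluster with DMSO. PCDHGC3 is a C-type gene known for expression outside the nervous system. The PCDHGC3 level was 18.1, 14.4 and 15.6 CPM with DMSO, 29.9, 24.1 and 25.5 under ipatasertib, 17.9, 21.7 and 19.7 under tazemetostat, and 21.8, 18.7 and 24.9 under both. The ipatasertib libraries are all above DMSO, while library A with tazemetostat lies within the DMSO range. PCDHGC3 rose by log2 0.72 ± 0.11 (adjusted p = 1.51e-05) with ipatasertib, log2 0.30 ± 0.11 (adjusted p = 0.0309) with tazemetostat and log2 0.44 ± 0.12 (adjusted p = 0.00215) with both. The rise with both was below the sum of the single rises, with an interaction of log2 -0.58 ± 0.16 (adjusted p = 0.0219). The tazemetostat call was lost without DMSO B or C or tazemetostat B or C (adjusted p = 0.0826 to 0.184).

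PCDHGB5, of the B-type gamma genes, had its highest mean with tazemetostat. The PCDHGB5 level was 16.6, 12.7 and 13.9 CPM with DMSO, 24.7, 18.4 and 20.7 under ipatasertib, 19.7, 24.4 and 23.6 under tazemetostat, and 20.9, 18.4 and 23.3 under both. All treated libraries are above the DMSO libraries, and the 3 treated groups overlap. PCDHGB5 took 28.6% ± 1.29 of the cluster's reads with DMSO and 31% ± 1.45 with tazemetostat, while PCDHGC3 took 31.9% ± 0.75 and 27.3% ± 0.73 (SD, n = 3). PCDHGB5 rose by log2 0.56 ± 0.12 (adjusted p = 0.000579) with ipatasertib, log2 0.65 ± 0.12 (adjusted p = 0.000129) with tazemetostat and log2 0.53 ± 0.13 (adjusted p = 0.000777) with both, with an interaction of log2 -0.68 ± 0.17 (adjusted p = 0.0154). PCDHGA4 rose by log2 0.98 ± 0.26 (adjusted p = 0.00366), log2 1.30 ± 0.25 (adjusted p = 0.000189) and log2 1.15 ± 0.27 (adjusted p = 0.000883) in the same order, with an interaction of log2 -1.12 ± 0.35 (adjusted p = 0.0408). The interaction calls of all 3 genes were lost when DMSO library B or C, ipatasertib library A or combination library B was left out, with adjusted p of 0.0501 to 0.0621 for PCDHGB5. That of PCDHGC3 was lost also without tazemetostat B (0.064 to 0.0873 over its 5 libraries). That of PCDHGA4 was lost also without DMSO A, ipatasertib C, tazemetostat B, tazemetostat C or combination C (0.0517 to 0.142 over its 9 libraries), and its ipatasertib call without ipatasertib A (0.0579).

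Other gamma genes answered tazemetostat. The PCDHGB1 level was 6.92, 6.00 and 5.93 CPM with DMSO, 5.66, 6.83 and 6.31 under ipatasertib, 10.3, 10.5 and 8.61 under tazemetostat, and 9.64, 6.30 and 7.80 under both. PCDHGB1 rose by log2 0.63 ± 0.13 (adjusted p = 0.000414) with tazemetostat and was not called with ipatasertib (log2 -0.011 ± 0.14, adjusted p = 0.962). PCDHGB2 rose by log2 0.76 ± 0.20 (adjusted p = 0.00348), PCDHGA7 by log2 0.54 ± 0.15 (adjusted p = 0.00537) and PCDHGA5 by log2 0.92 ± 0.28 (adjusted p = 0.0106) with tazemetostat. The PCDHGA5 call was lost without tazemetostat library C (adjusted p = 0.0841). PCDHGB3 had means of 0.245, 0.504, 0.556 and 0.552 CPM with DMSO, ipatasertib, tazemetostat and both. It was below the cutoff in every DMSO library, so no test against DMSO is given for it. PCDHGA9 was called higher with each single drug. Its ipatasertib call was lost without DMSO C, ipatasertib A or ipatasertib C (adjusted p = 0.0534 to 0.0673). Its tazemetostat call was lost without any of 9 libraries (adjusted p = 0.0506 to 0.211). PCDHGA12 missed the threshold with tazemetostat (log2 0.44 ± 0.19, adjusted p = 0.065).

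**Figure D4:**
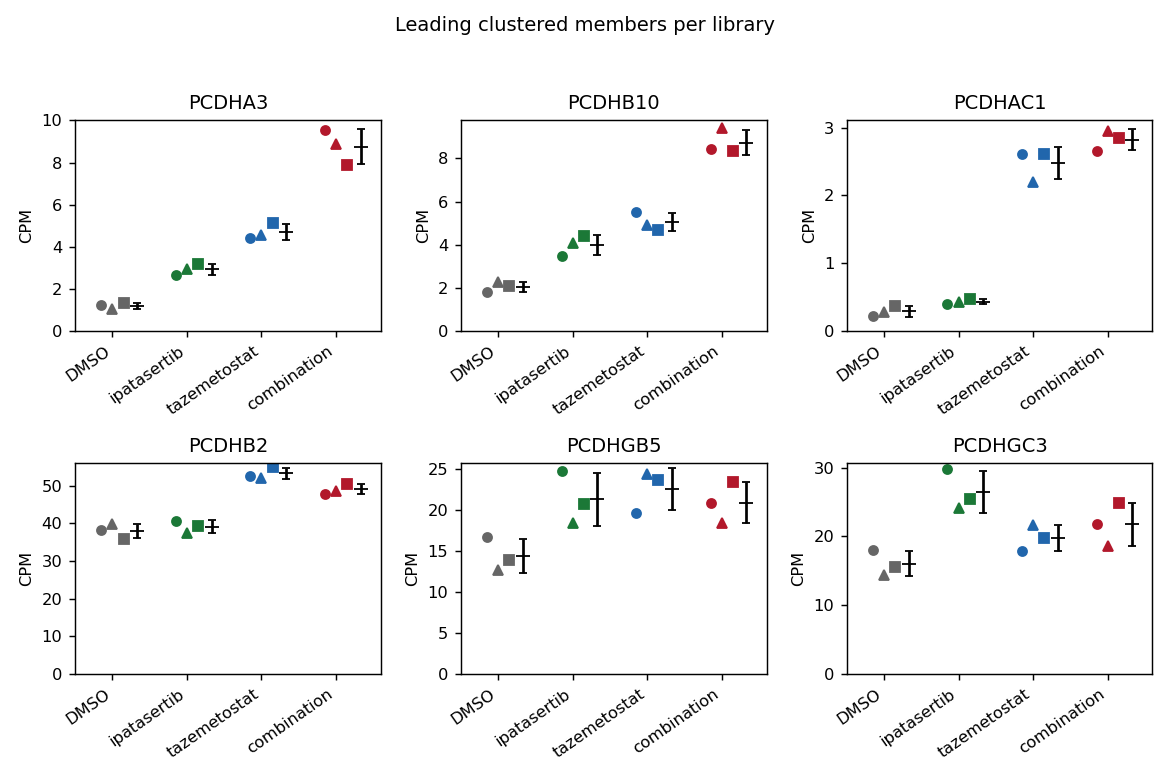
CPM per library of PCDHA3, PCDHB10, PCDHAC1, PCDHB2, PCDHGB5 and PCDHGC3 on linear axes from 0. Circles, triangles and squares are libraries A, B and C, and the black mark is the mean with its SD (n = 3). PCDHA3 and PCDHB10 step up from DMSO through ipatasertib and tazemetostat to the combination, PCDHAC1 is at most 0.473 CPM without tazemetostat, and PCDHGC3 is highest with ipatasertib.

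Among the solitary genes, PCDH7 rose with tazemetostat and further with both drugs. It encodes a delta-type protocadherin that binds protein phosphatase 1 through its cytoplasmic tail. The PCDH7 level was 9.19, 11.1 and 11.1 CPM with DMSO, 9.98, 13.8 and 9.31 under ipatasertib, 50.5, 38.3 and 43.2 under tazemetostat, and 71.8, 88.2 and 76.8 under both. The ipatasertib libraries overlap DMSO, the tazemetostat libraries are all higher, and the combination libraries are higher again. PCDH7 rose by log2 2.07 ± 0.13 (adjusted p = 1.33e-11) with tazemetostat and log2 2.92 ± 0.13 (adjusted p = 1.47e-14) with both, and was not called with ipatasertib alone (log2 0.065 ± 0.14, adjusted p = 0.734). The combination exceeded tazemetostat by log2 0.85 ± 0.11 (adjusted p = 2.83e-06), and the interaction was log2 0.78 ± 0.18 (adjusted p = 0.0103). The interaction kept its call without each of the 12 libraries in turn. Per kb of exon that no other member shares, PCDH7 was at 1.47 ± 0.15 CPM with DMSO and 11.1 ± 1.19 with both (SD, n = 3). With both drugs it came after PCDH1 and PCDHB2 only among the 68 members.

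PCDH20 and PCDH18 are delta-type protocadherins, and PCDH20 is known as a gene silenced in several carcinomas. The PCDH20 level was 0.177, 0.0454 and 0.259 CPM with DMSO, 0.305, 0.374 and 0.118 under ipatasertib, 7.70, 6.46 and 6.11 under tazemetostat, and 11.6, 10.8 and 13.9 under both. No library with tazemetostat overlaps the others. PCDH20 rose by log2 5.27 ± 0.28 with tazemetostat and log2 6.12 ± 0.26 with both. The combination exceeded tazemetostat by log2 0.85 ± 0.14 (adjusted p = 5.62e-05). The PCDH18 level was 0.0355, 0.0454 and 0.0741 CPM with DMSO, 0.174, 0.0534 and 0.197 under ipatasertib, 1.73, 1.64 and 0.956 under tazemetostat, and 2.27, 1.67 and 1.39 under both. PCDH18 rose by log2 4.64 ± 0.48 with tazemetostat and log2 4.98 ± 0.48 with both. The DMSO levels of both genes lie around the floor of 3 counts, so the sizes of these fitted changes are imprecise. Both genes passed the filter through the tazemetostat and combination libraries alone. No test against DMSO is therefore given for them.

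PCDH10, a delta-type protocadherin that recruits the WAVE complex and is often methylated in carcinomas, had no read in the 6 libraries without tazemetostat. It had 58 reads in the 3 tazemetostat libraries, at least 21.4-fold higher than DMSO against a floor of 3 counts over the group, and 11 reads with both drugs, at least 6.21-fold higher. Its levels were 0.576, 1.01 and 0.832 CPM with tazemetostat and 0.388, 0 and 0.279 with both. PCDH10 passed the filter through the tazemetostat libraries alone, so no test is given for it. PCDH17 likewise had no read with DMSO or ipatasertib, 16 with tazemetostat (at least 5.89-fold higher) and 2 with both, too few to test. PCDH15 had 12 reads and PCDH19 had 14 over all 12 libraries, and neither was tested.

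PCDH9 followed the other drug. The PCDH9 level was 10.4, 10.5 and 9.93 CPM with DMSO, 5.36, 5.44 and 4.34 under ipatasertib, 11.6, 12.1 and 10.5 under tazemetostat, and 3.82, 4.78 and 3.90 under both. The 6 libraries with ipatasertib are all below the other 6. PCDH9 fell with ipatasertib (log2 -1.03 ± 0.12, adjusted p = 2.81e-07) and with both (log2 -1.31 ± 0.13, adjusted p = 1.07e-08) and was not called with tazemetostat (log2 0.15 ± 0.10, adjusted p = 0.236). PCDH12, known from endothelium and trophoblast, was at 0.454 to 0.482 CPM with DMSO and 0.997 to 1.25 with both, a rise of log2 1.28 ± 0.31 (adjusted p = 0.00101), and was called with neither drug alone.

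PCDH1, a protocadherin of epithelia and airway, was the highest member in all 4 groups per kb of exon that no other member shares. It was at 20.1 ± 0.40 CPM per kb with DMSO (SD, n = 3). The PCDH1 level was 108.5, 111 and 107 CPM with DMSO, 108, 96.9 and 99.3 under ipatasertib, 129, 157 and 149 under tazemetostat, and 112, 93.2 and 102 under both. The tazemetostat libraries are all above the other 9. PCDH1 rose by log2 0.42 ± 0.078 (adjusted p = 0.000159) with tazemetostat but not with both (log2 -0.084 ± 0.080, adjusted p = 0.368), and was lower with both than with tazemetostat alone (log2 -0.50 ± 0.080, adjusted p = 2.49e-05), with an interaction of log2 -0.40 ± 0.11 (adjusted p = 0.025). That interaction was lost on leaving out any of 6 libraries (DMSO B, DMSO C, ipatasertib A, tazemetostat B, tazemetostat C or combination B), with adjusted p of 0.0509 to 0.103.

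PCDH8, a synaptic protocadherin, was the only member that fell with tazemetostat. The PCDH8 level was 8.98, 9.95 and 9.34 CPM with DMSO, 8.54, 10.4 and 8.36 under ipatasertib, 6.97, 7.32 and 7.82 under tazemetostat, and 12.1, 10.5 and 11.7 under both. The tazemetostat libraries are below DMSO and the combination libraries above it. It fell with tazemetostat (log2 -0.35 ± 0.11, adjusted p = 0.0121) and rose with both (log2 0.29 ± 0.11, adjusted p = 0.026), and the interaction of log2 0.69 ± 0.16 (adjusted p = 0.00896) kept its call without each of the 12 libraries in turn. The rise with both was lost without DMSO A, DMSO C, tazemetostat C, combination A or combination C (adjusted p = 0.0506 to 0.0994).

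**Figure D5:**
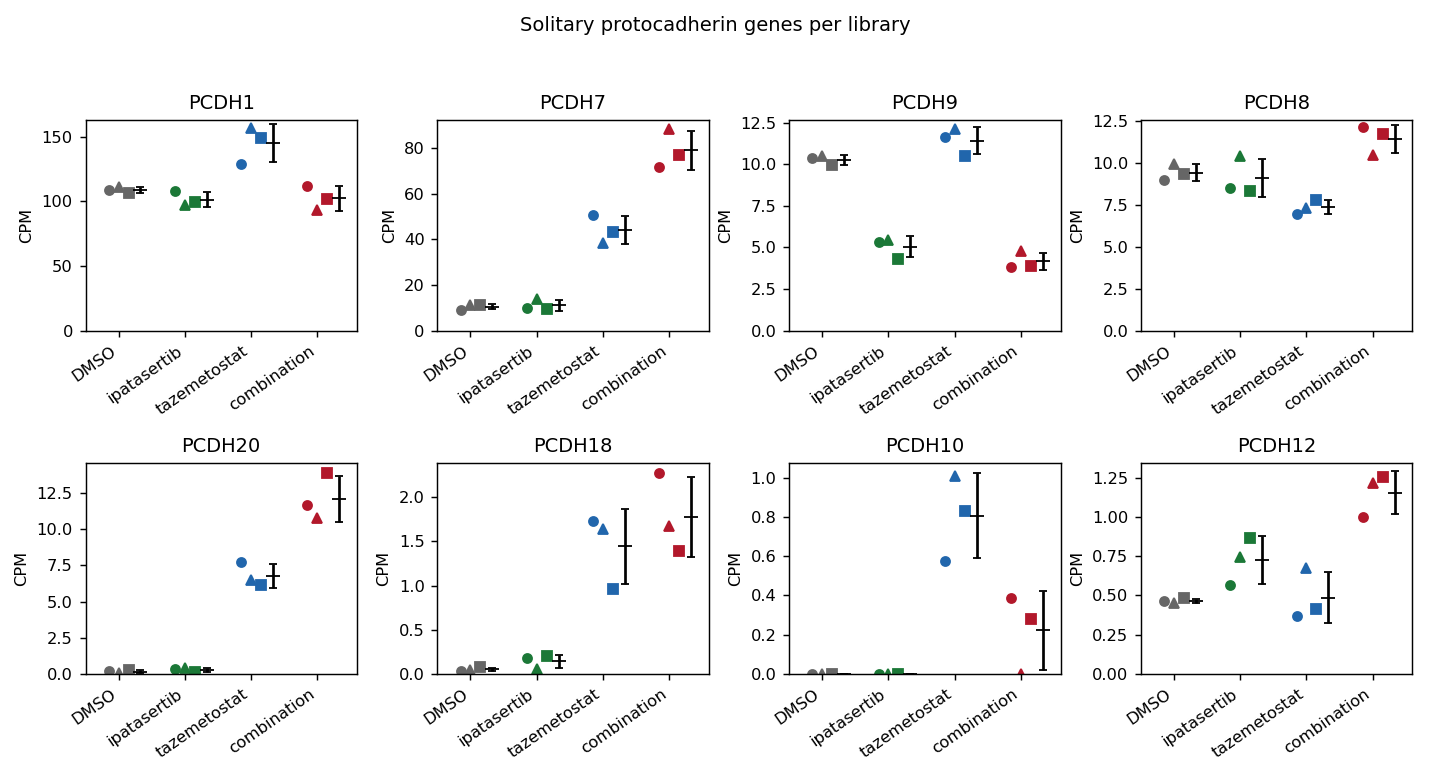
CPM per library of 8 solitary protocadherin genes on linear axes from 0, each panel with its own scale. Circles, triangles and squares are libraries A, B and C, and the black mark is the mean with its SD (n = 3). PCDH7 and PCDH20 step up from tazemetostat to the combination, PCDH9 is low in the 6 libraries with ipatasertib, and PCDH10 has reads only where tazemetostat was given.

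Across the 44 tested members, the effect of adding ipatasertib to tazemetostat was mixed: 9 were higher and 5 lower with both than with tazemetostat alone, where 23.2% of all genes were higher and 23.1% lower (46.3% called). Of the 24 above the cutoff in every DMSO library, 7 (29.2%) were higher and 3 (12.5%) lower, against 23.1% and 24.7% of the 13221 genes. Adding tazemetostat to ipatasertib raised 22 members and lowered 1, where 24.2% of all genes rose and 20.7% fell (44.9% called). Of the 24, 11 rose and 1 fell, against 21.3% and 22.6% of the 13221 genes. The interaction was called for 6 of the 44, a share near that of all genes, with 2 positive (PCDH7 and PCDH8) and 4 negative (PCDH1, PCDHGA4, PCDHGB5 and PCDHGC3), where 5.96% of all genes were positive and 6.01% negative (12% called).

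Of 22 tested genes within or flanking the clusters, 4 rose and 5 fell with tazemetostat. These counts were near the 25.9% and 21.3% of all tested genes that rose and fell. The solitary members PCDH1 and PCDH12, which also lie after the gamma cluster, are not among these 22. TAF7, which lies between the beta and gamma clusters, was at 152, 160, 159 and 170 CPM with DMSO, ipatasertib, tazemetostat and both, and was not called with tazemetostat (log2 0.061 ± 0.063, adjusted p = 0.444). SLC25A2, in the same interval, had 9 reads in all. ARAP3, after the gamma cluster, rose by log2 1.59 ± 0.19 (adjusted p = 5.1e-07) and RELL2 by log2 0.51 ± 0.17 (adjusted p = 0.0167), while SPRY4, a feedback inhibitor of receptor tyrosine kinase signalling in the same stretch, fell (log2 -0.73 ± 0.14, adjusted p = 0.000231).

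Of the related cadherins outside the protocadherins, 10 of 14 tested genes rose with tazemetostat, where 25.9% of all tested genes rose. Of the 10 of these genes above the cutoff in every DMSO library, 7 rose, against 22.9% of all such genes. FAT4, a giant cadherin of planar polarity and Hippo signalling, rose by log2 4.23 ± 0.48. Its partner-family gene DCHS2 rose by log2 3.22 ± 0.22 (adjusted p = 5.94e-11). RET, a receptor tyrosine kinase with cadherin repeats, rose by log2 2.66 ± 0.20 (adjusted p = 2.41e-10). Of these 3, RET alone was above the cutoff in every DMSO library. FAT4 was below it in every DMSO library, so no test is given for FAT4. Of 25 genes for proteins that act with protocadherins, 8 rose and 6 fell with tazemetostat, near the shares of all genes (25.9% and 21.3%). WASF3 and CYFIP2, of the WAVE complex that builds branched actin, rose from at most 0.0421 CPM on average with DMSO to 12.8 and 1.99 CPM and were below the cutoff in every DMSO library, and FYN, a Src-family kinase, rose by log2 1.83 ± 0.12 (adjusted p = 3.58e-11).

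Of 31 genes for the CTCF, cohesin, methylation and heterochromatin machinery known to act on protocadherin promoters, 3 rose and 5 fell with tazemetostat, where 25.9% of all genes rose and 21.3% fell. Those that rose were TET1, TET2 and TET3. The CTCF transcript stood at 87.5 CPM with DMSO against 87.0 under tazemetostat (log2 -0.0081 ± 0.062, adjusted p = 0.928). RAD21, a cohesin subunit, fell (log2 -0.49 ± 0.084, adjusted p = 5.14e-05), as did REST, a repressor of neuronal genes (log2 -0.40 ± 0.086, adjusted p = 0.000634), and ATRX, a chromatin remodeller (log2 -0.39 ± 0.10, adjusted p = 0.00329). Of 11 PRC2 genes, 1 rose and 4 fell, against the same shares of all genes.

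Markers of other cell types moved beside these genes, and their part in the results was not tested. The summed level of 14 neuronal markers ranged from 34.9 to 37.0 CPM with DMSO, 27.0 to 28.8 under ipatasertib, 59.2 to 62.8 under tazemetostat and 46.6 to 52.0 with both, with 7 of the 14 at 0 with DMSO. The 10 fibroblast markers summed to 14.8 to 16.5, 14.3 to 16.2, 30.1 to 33.4 and 34.2 to 37.1 CPM, with 5 at 0 with DMSO. The 10 endothelial markers summed to 34.1 to 36.8, 41.2 to 45.7, 37.3 to 42.5 and 41.7 to 47.6 CPM in the same order, with 2 at 0 with DMSO. The 10 leukocyte markers summed to 80.4 to 86.5, 78.2 to 101, 57.4 to 64.7 and 62.6 to 73.2 CPM, with 1 at 0 with DMSO.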

How the data were processed

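Poly(A) RNA was measured in 12 libraries of MDA-MB-468 cells, 3 per treatment. The authors deposited raw read counts by gene symbol, in 1 table per library. The submitters' processing notes name STAR, SAMtools, HTSeq, DESeq2 and the build hg19; no source used here states the annotation, strand setting, counting mode or versions. The authors' normalized table was not used. Summary lines at the foot of each table (reads in no gene) entered neither library sizes nor tests, and genes took 60.5% to 68% of the counted total.

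Testing used edgeR 4.0.16 under R 4.3.3. Genes were kept by filterByExpr at a minimum count of 10 and scaled by TMM. All 12 libraries entered 1 robust quasi-likelihood model of group means, which left 8 residual degrees of freedom, and p-values were adjusted by Benjamini-Hochberg over 14571 genes (threshold 0.05). CPM values use TMM-scaled totals of the tested genes. Where a group had no read, the fold is a bound set by 3 counts in that group as a whole. Ratios to 1 to 3 counts carry a 95% exact binomial interval. Both reflect counting error alone, because reads lacked molecular identifiers and are not independent molecules. Exon sharing came from GENCODE 29 and promoters from RefSeq, both on GRCh38 builds, and neither was used to place reads. The procedure was tested on simulated counts.

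Named were every solitary gene, the 6 highest members of each cluster, up to 6 further members per cluster with the smallest adjusted p, the members with an interaction call, and up to 3 genes of each other list. The members, the 11 lists and this rule were chosen with earlier results of these data known. Part of the named genes are printed. Some members outside this rule, such as the alpha genes too low to test, are printed as well. Results were recomputed with DESeq2 1.42.0, with RLE factors or library totals, without the filter or with 50 counts required in 3 libraries, with a log2 threshold of 1, with only the groups compared, with replicate letters as a block, and without each library or all A libraries.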

Additional observations from a re-analysis of the deposited data

Results flagged for a closer look

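For 6 of the 44 tested members the change with both drugs departed from the sum of the 2 single changes, by the interaction term of edgeR's quasi-likelihood test, a share near the 12% of all tested genes called for this term. The departure was 0.78 on the log2 scale for PCDH7 (adjusted p = 0.0103) and 0.69 for PCDH8 (adjusted p = 0.00896), which were higher with both drugs than the sum. It was -0.40 for PCDH1 (adjusted p = 0.025), -1.12 for PCDHGA4 (adjusted p = 0.0408), -0.68 for PCDHGB5 (adjusted p = 0.0154) and -0.58 for PCDHGC3 (adjusted p = 0.0219), which were lower than the sum. With each of the 12 libraries left out in turn, the calls of PCDH7 and PCDH8 were kept, and the other 4 were lost without DMSO B, DMSO C, ipatasertib A or combination B.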

How the results depend on the processing

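The members called were 10, 31, 32, 23, 14 and 6 in the comparisons with DMSO (ipatasertib, tazemetostat, both), of both drugs with ipatasertib and with tazemetostat, and for the interaction. A log2 threshold of 1 left 4, 19, 4 and 1 for ipatasertib, tazemetostat, the combination against tazemetostat and the interaction. With at least 50 counts in 3 libraries, when 19 members were tested, 6, 17, 17, 13 and 9 were called in the first 5 comparisons. Leaving out each library in turn gave 5 to 10, 28 to 32, 27 to 33, 18 to 24, 12 to 14 and 2 to 6 calls. The interaction count fell to 2 without DMSO B, DMSO C, ipatasertib A or combination B, to 3 without tazemetostat B, and that of ipatasertib to 5 without ipatasertib A. The interaction could not be fitted from the groups of one comparison alone. The log2 ratio of the summed CPM of the alpha cluster ranged over 0.793 to 0.934, 2.25 to 2.36 and 2.61 to 2.71 for ipatasertib, tazemetostat and both, that of beta over 0.0494 to 0.114, 0.652 to 0.716 and 0.679 to 0.727, and that of gamma over 0.403 to 0.587, 0.478 to 0.613 and 0.443 to 0.577. With library totals in place of TMM the beta ratio was 0.764 with tazemetostat and 0.77 with both, and without all A libraries the gamma ratio was 0.668 with tazemetostat. Of 2254 alternative values for 116 log2 changes of 41 named members, 2063 stayed on their side of the threshold, 191 lost the call and 0 changed direction. Members that a setting no longer tested, such as those under 50 counts, have no value there and are in none of these counts.

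The letters A, B and C were not taken to pair the libraries. The correlation of deviations between same-lettered libraries was over 0.1 in 1 of 3 pairs for ipatasertib and DMSO (0.234, 0.0784 and 0.0524). It was over 0.1 in 0 of 3 for tazemetostat and DMSO. For the combination it was -0.133, -0.0255 and -0.133 with DMSO and -0.0717, 0.165 and -0.167 with ipatasertib. With tazemetostat it was negative for every letter (-0.405, -0.281 and -0.155). With the replicate block, 10, 30, 32, 21, 12 and 4 members were called, and the interactions of PCDH1 and PCDHGA4 were lost. In that pairing of ipatasertib and DMSO, 1 of 3 libraries correlated best with its own letter. Depth limits the alpha cluster most, where 9 of 15 genes were too low to test.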

Other observations

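Of the classical and other cadherins, 4 were above the filter's cutoff in every DMSO library, and 3 of them (CDH1, CDH11 and CDH24) rose with tazemetostat, where 22.9% of all genes above that cutoff rose. CDH2, CDH5 and CDH12 were below it in every DMSO library and were tested only through treated groups, so their levels are given with no test. CDH2, the N-cadherin of neural and mesenchymal cells, went from a mean of 0.037 CPM with DMSO to 2.89 with tazemetostat and 3.07 with both. CDH11, a mesenchymal cadherin, rose by log2 2.43 with tazemetostat (adjusted p = 1.54e-08) and 2.23 with both (adjusted p = 7.86e-08). CDH12, a neural cadherin, reached 3.18 CPM with tazemetostat and 0.443 with both, from 0.0118 with DMSO. CDH5, the cadherin of endothelium, had means of 0.15, 0.924, 0.472 and 3.83 CPM with DMSO, ipatasertib, tazemetostat and both. CDH1, the epithelial E-cadherin, was at 151, 121, 172 and 132 CPM with DMSO, ipatasertib, tazemetostat and both.

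Neuronal genes outside the family moved unevenly. MAP2, a dendritic microtubule protein, rose by log2 0.99 with tazemetostat (adjusted p = 1.48e-08), and SYP, a synaptic vesicle protein, by 0.86 (adjusted p = 0.000172). SYN1, another vesicle protein, fell with tazemetostat (log2 -0.71, adjusted p = 0.0128). TUBB3, a neuronal tubulin, rose with tazemetostat (log2 0.52, adjusted p = 0.000486) and fell with ipatasertib (log2 -0.90, adjusted p = 3.22e-06).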
